A study of Homo sapiens with 60 samples.

Results

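The 39 genes described here encode the core machinery of DNA replication and of the G1/S transition that precedes it. The members are a list of gene symbols put together by function, with earlier results of these data known, so their shares are descriptions. Each was found in the count table through its Ensembl identifier. All 39, of 60675 gene identifiers in the table, passed the filter on low counts, which left 16445 genes for testing. RNA-seq had been run on HT29, a human colorectal adenocarcinoma cell line, 24 h after the addition of extracts of traditional Korean tonics or of vehicle. The study compared extracts and doses, and the table holds 60 of its libraries for these groups.

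The treated groups were high, medium and low doses of 7 extracts. Palmul-tang and Sibjeondaebo-tang are multi-herb formulas given as water extracts, at 500, 100 and 20 µg/mL. Poria Cocos, Atractylodis Rhizoma and Panax Ginseng were given as ethanol extracts at those same doses, and are called Poria, Atractylodes and Ginseng below. The ethanol extract of Glycyrrhizae Radix, licorice root, called Glycyrrhiza below, was given at 350, 70 and 14 µg/mL. That of Angelicae Gigantis Radix, called Angelica below, was given at 320, 64 and 12.8 µg/mL. The vehicle was 0.1% DMSO according to the sample labels, whereas the series text gives 2%. The treatment labels of the extract libraries give no DMSO share, and the part of the solvent in differences from vehicle was not tested. Each group had 3 libraries, except the Angelica doses with 1 each. The labels do not state whether libraries of a group came from separate cultures, so p-values cover only the spread between these libraries. The titles give all 60 libraries 1 batch letter. Sample names begin with 8 to 11 for the extracts and with C1 for vehicle, and what these prefixes stand for is not stated, so vehicle and prefix cannot be told apart.

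Before S phase, the origin recognition complex, CDC6 and CDT1 load the ring-shaped MCM2-7 helicase onto origins, a step called licensing. Cyclin E with its kinase, and CDC7, then help to switch the helicase on together with CDC45, the GINS complex and MCM10, after which the polymerases, the clamp PCNA and its loader RFC copy the DNA. Most of these genes are targets of E2F factors, which are released from the retinoblastoma protein at the end of G1, and intestinal epithelia and colorectal tumour lines that proliferate transcribe them strongly. RefSeq promoter windows of 250 bases before the start of transcription (GRCh38.p14) were matched for 34 of the 39 genes. The octamers TTTCCCGC, TTTCGCGC, TTTGCCGC and TTTGGCGC, forms of the E2F site read on both strands, occurred in 15 of the 34 windows (44.1%), against 3.40% of all 27305 genes with a window. CCAAT, the letters that the factor NF-Y reads, also taken on both strands, occurred in 20 windows (58.8%), against 37.00% of all genes. The letters GGGCGG, sought in the same way, occurred in 26 windows (76.5%), against 46.24% of all genes, and are not in capitals below. The windows of 4 genes that recur below are printed 5′ to 3′ on the strand of the gene, with E2F octamers and CCAAT letters in capitals, because CDC6 and CDT1 rose at the high Glycyrrhiza dose while MCM6 and TYMS fell. CDC6 lies at chr17:40287629-40287878 (+ strand), CDT1 at chr16:88803539-88803788 (+), MCM6 at chr2:135876444-135876693 (-) and TYMS at chr18:657403-657652 (+).
CDC6: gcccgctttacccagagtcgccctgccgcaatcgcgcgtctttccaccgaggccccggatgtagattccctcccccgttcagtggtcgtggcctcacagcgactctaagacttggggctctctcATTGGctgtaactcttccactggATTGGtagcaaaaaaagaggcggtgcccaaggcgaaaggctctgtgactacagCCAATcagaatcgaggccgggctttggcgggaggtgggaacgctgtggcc
CDT1: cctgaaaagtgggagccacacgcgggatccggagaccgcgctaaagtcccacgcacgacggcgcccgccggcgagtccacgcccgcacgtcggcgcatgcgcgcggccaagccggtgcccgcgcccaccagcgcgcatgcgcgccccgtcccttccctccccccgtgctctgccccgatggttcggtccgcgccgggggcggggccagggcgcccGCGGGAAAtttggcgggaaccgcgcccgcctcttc
MCM6: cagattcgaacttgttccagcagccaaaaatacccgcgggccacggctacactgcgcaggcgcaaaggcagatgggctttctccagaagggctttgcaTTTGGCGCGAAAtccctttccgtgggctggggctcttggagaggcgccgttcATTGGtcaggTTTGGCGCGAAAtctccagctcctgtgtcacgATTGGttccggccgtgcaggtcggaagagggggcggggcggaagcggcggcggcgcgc
TYMS: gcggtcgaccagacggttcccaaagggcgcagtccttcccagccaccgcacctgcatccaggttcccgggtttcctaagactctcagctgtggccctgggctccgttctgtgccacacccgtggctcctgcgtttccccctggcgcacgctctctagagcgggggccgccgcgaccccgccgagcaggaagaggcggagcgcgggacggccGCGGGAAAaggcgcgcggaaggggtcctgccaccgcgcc
The CDC6 window holds the CCAAT letters 3 times and no octamer of this set, and CDT1 and TYMS hold 1 octamer of the set each. MCM6 holds 2 stretches in which octamers of opposite strands overlap, beside CCAAT letters at 2 places. The CDC6 and CDT1 windows also hold the letters tttggcgg, which differ from TTTGGCGC in the last letter alone. These letters were not in the set and stand in lower case, so the set may miss other forms of the site. An octamer was found in 1 of the 2 windows of genes that rose at the high against the low Glycyrrhiza dose, in 6 of 10 of those that fell and in 8 of 22 of the others. A match of letters describes the window and is not evidence of binding.

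Library totals ran from 19.31 to 29.62 M counts, with vehicle at 19.79 to 20.88 M. All 11 markers of colorectal epithelium were among the tested genes, at summed levels of 11830 to 14363 CPM (counts scaled to library totals of 1 M) per library, although the intestinal factor CDX1 reached at most 1.42 CPM. Of 10 markers of blood, stroma, endothelium and liver, 7 did not pass the filter on low counts, COL1A1 and PECAM1 lay at or below 2.43 CPM, and LYZ, which secretory gut epithelium can also make, ran from 1290 to 1711 CPM. Transcripts of the mitochondrial genome took 6.83% to 8.83% of counts as means of the treated groups with 3 libraries, against 8.91%, 10.17% and 11.63% in the vehicle libraries. Single treated libraries reached 10.05% at medium Ginseng, 9.71% at low Poria and 9.39% at low Ginseng, within the vehicle range. On the third principal component 3 libraries stood apart, low Poria replicate 1 and replicate 3 of high and of low Ginseng. In these bulk samples fewer cycling cells and less of a transcript per cell cannot be told apart.

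Within the vehicle libraries the genes spanned a wide range of levels per length, given as CPM per kb of annotated exon. PCNA, the sliding clamp, was highest at 125 ± 11.5 CPM per kb (SD, n = 3), followed by the helicase gene MCM7 at 79.6 ± 4.16 CPM per kb and RRM2, a subunit of ribonucleotide reductase, at 54.5 ± 0.444. POLD2 (54.3 CPM per kb) and RRM1 (54.0 ± 1.43) were not apart from RRM2 beyond their spread. At the low end were the cyclin gene CCNE2 at 3.75 ± 0.608 CPM per kb, the GINS subunit gene GINS3 at 3.65 ± 0.324, which did not differ beyond their spread, and GINS4 at 1.17 ± 0.0554. Of the means of the 19 groups with 3 libraries, the lowest was that of vehicle for 18 of the 39 genes and that of the high Glycyrrhiza dose for 14.

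Between its own high and low doses, the Glycyrrhiza extract split the licensing factors. The loaders CDC6 and CDT1 rose, while 5 of the 6 genes of the MCM2-7 helicase they load fell. In all, 14 of the 39 genes fell and 2 rose. Among all tested genes 24.9% were called in either direction, with 10.9% lower and 14.0% higher, so the share of the 39 that fell, 35.9%, stood above that of all genes and the share that rose, 5.13%, below it. The median log2 fold change of the 39 was -0.09, against -0.01 over all genes. Fold changes are log2 values of high over low dose with the standard error of the model, and a gene is said to rise or fall where its Benjamini-Hochberg adjusted p in edgeR's quasi-likelihood test was below 0.05. Statements below on whether libraries of the groups overlap describe single genes. The share of all tested genes whose libraries did not overlap is not given here, so lack of overlap has no background beside it.

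CDC6, the ATPase that joins the origin complex in G1, had 103, 95.1 and 97.5 CPM in the libraries of the high Glycyrrhiza dose, against 81.1, 78.1 and 82.9 at the low dose. Its log2 fold change was 0.29 ± 0.04 (adjusted p = 1.0e-07). CDT1, which carries the helicase to the origin, had 63.6, 57.6 and 64.8 CPM at the high dose, against 52.2, 55.3 and 49.5 at the low dose, a change of 0.25 ± 0.05 (adjusted p = 1.8e-04). For both loaders every library of the high dose lay above every library of the low dose. ORC1, the ATPase subunit of the origin complex, had 38.6, 38.2 and 35.8 CPM at the high dose, against 36.9, 35.7 and 36.4 at the low dose, and the groups overlapped (adjusted p = 0.6). Among the helicase subunits, MCM4 had 290, 299 and 292 CPM at the high dose, against 340, 349 and 334 at the low dose, and fell by 0.22 ± 0.04 (adjusted p = 5.0e-06). MCM6 had 118, 110 and 109 CPM at the high dose, against 132, 129 and 131 at the low dose, and fell by 0.22 ± 0.04 (adjusted p = 2.4e-05). MCM5 had 98.2, 104 and 110 CPM at the high dose, against 118, 116 and 116 at the low dose, and fell by 0.16 ± 0.04. No library of the high dose reached the lowest library of the low dose for these 3 subunits. MCM2 had 215, 210 and 209 CPM at the high dose, against 239, 235 and 223 at the low dose, and fell by 0.14 ± 0.04. MCM7 fell by 0.12 ± 0.04, and MCM3 had a change of -0.07 ± 0.04 that did not pass (adjusted p = 0.19, 95% interval -0.15 to 0.01).

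Among the factors that activate the helicase, 2 of 7 fell and 0 rose, where 10.9% of all genes were lower and 14.0% higher. CDC7, the kinase that phosphorylates the MCM ring, had 25.0, 24.8 and 25.9 CPM at the high Glycyrrhiza dose, against 30.9, 29.2 and 28.8 at the low dose, and fell by 0.23 ± 0.05 (adjusted p = 7.6e-04). GINS2, a subunit of the complex that joins CDC45 at the active helicase, had 32.3, 36.8 and 33.3 CPM at the high dose, against 40.5, 38.2 and 39.8 at the low dose, and fell by 0.21 ± 0.06 (adjusted p = 0.0074). In neither gene did the libraries of the groups overlap. CDC45 itself had 57.3, 54.1 and 56.3 CPM at the high dose, against 57.7, 53.0 and 55.7 at the low dose, with a change of 0.01 ± 0.05 (adjusted p = 0.9). MCM10, which binds the activated helicase, had 38.4, 36.1 and 37.6 CPM at the high dose, against 37.0, 37.3 and 37.0 at the low dose, with a change of 0.01 ± 0.05 (adjusted p = 0.91). For CDC45 and MCM10 the libraries of the doses overlapped.

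Of 13 genes for polymerases, the clamp and its loader, 2 fell and 0 rose, against 10.9% of all genes lower and 14.0% higher. A fall of 2 of 13 is near that background. Both encode subunits of the lagging-strand polymerase delta, whose small subunit gene POLD4, outside the 39, rose as given below. POLD2 had 171, 174 and 180 CPM at the high dose, against 200, 208 and 188 at the low dose, and fell by 0.18 ± 0.05. POLD3 fell by 0.13 ± 0.04, and the catalytic subunit gene POLD1 had a change of -0.10 ± 0.05 (adjusted p = 0.16). PCNA had 213, 207 and 205 CPM at the high dose, against 212, 203 and 215 at the low dose, and the groups overlapped, with a change of -0.01 ± 0.05. POLA1, the catalytic subunit of the primer-making polymerase alpha, had 39.4, 39.4 and 37.8 CPM at the high dose, against 39.5, 41.9 and 41.4 at the low dose, with a change of -0.07 ± 0.06 (adjusted p = 0.44). POLE2, a subunit of the leading-strand polymerase epsilon, had 11.4, 10.3 and 12.1 CPM at the high dose, against 12.5, 13.5 and 12.1 at the low dose, with a change of -0.17 ± 0.08 (adjusted p = 0.15). LIG1, the ligase that seals Okazaki fragments, had 89.7, 93.9 and 94.8 CPM at the high dose, against 108, 109 and 105 at the low dose, and fell by 0.21 ± 0.04 (adjusted p = 2.0e-05). For POLA1 and POLE2 the doses did not overlap, with the nearest libraries nearly equal, and neither gene passed. FEN1, which trims the flaps of Okazaki fragments, had a change of -0.03 ± 0.05 that did not pass.

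All 3 genes of nucleotide supply among the 39 fell, where 10.9% of all genes were lower and 14.0% higher. TYMS, thymidylate synthase and the target of fluorouracil, had 109, 107 and 103 CPM at the high Glycyrrhiza dose, against 126, 121 and 125 at the low dose, and fell by 0.22 ± 0.05 (adjusted p = 2.4e-04). RRM2, the regulated subunit of ribonucleotide reductase, had 289, 272 and 274 CPM at the high dose, against 297, 297 and 300 at the low dose, and fell by 0.10 ± 0.03. RRM1, its large subunit, fell by 0.14 ± 0.03. All high-dose libraries of these 3 genes lay below all low-dose libraries. Among the G1/S regulators CCNE2, 1 of the 2 cyclin E genes, fell furthest of all 39, to 11.3, 11.1 and 11.6 CPM at the high dose, against 13.6, 15.4 and 14.8 at the low dose. Its log2 fold change was -0.35 ± 0.09 (adjusted p = 0.0038), a fall of 21.7% if the model's value is read on the linear scale. The other cyclin E gene, CCNE1, had 22.9, 21.2 and 21.3 CPM at the high dose, against 23.9, 23.8 and 21.6 at the low dose, and overlapped between doses, with a change of -0.08 ± 0.07 (adjusted p = 0.46). E2F1, the factor that drives many of these genes, had 64.3, 58.8 and 62.4 CPM at the high dose, against 64.7, 62.3 and 63.9 at the low dose, with a change of -0.04 ± 0.05 (adjusted p = 0.6). UHRF1, which recruits the maintenance methyltransferase to new DNA, had 90.6, 95.0 and 92.1 CPM at the high dose, against 94.7, 96.5 and 99.8 at the low dose, with a change of -0.07 ± 0.05 (adjusted p = 0.32). E2F1 and UHRF1 overlapped between the doses as well. CCNE2 shares 1629 exon bases with INTS8 and TYMS 967 with ENOSF1, both on the opposite strand. MCM7 shares 392 with AP4M1 on the opposite strand and POLD3 123 with LIPT2-AS1 on the same strand. FEN1 shares 166 with TMEM258 and RFC5 186 with WSB2, both on the opposite strand. Over the 57 libraries of the fit INTS8 had 402% of the counts of CCNE2, and WSB2 315% of those of RFC5. The neighbour had 60.1% of the counts of TYMS, 49.1% of FEN1, 19.3% of POLD3 and 5.10% of MCM7. Whether strand entered the counting was not given in the sources used here, so the levels of these 6 genes, and of others of the 39 that share exon bases with a neighbour, are uncertain to that extent.

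**Figure D1:**
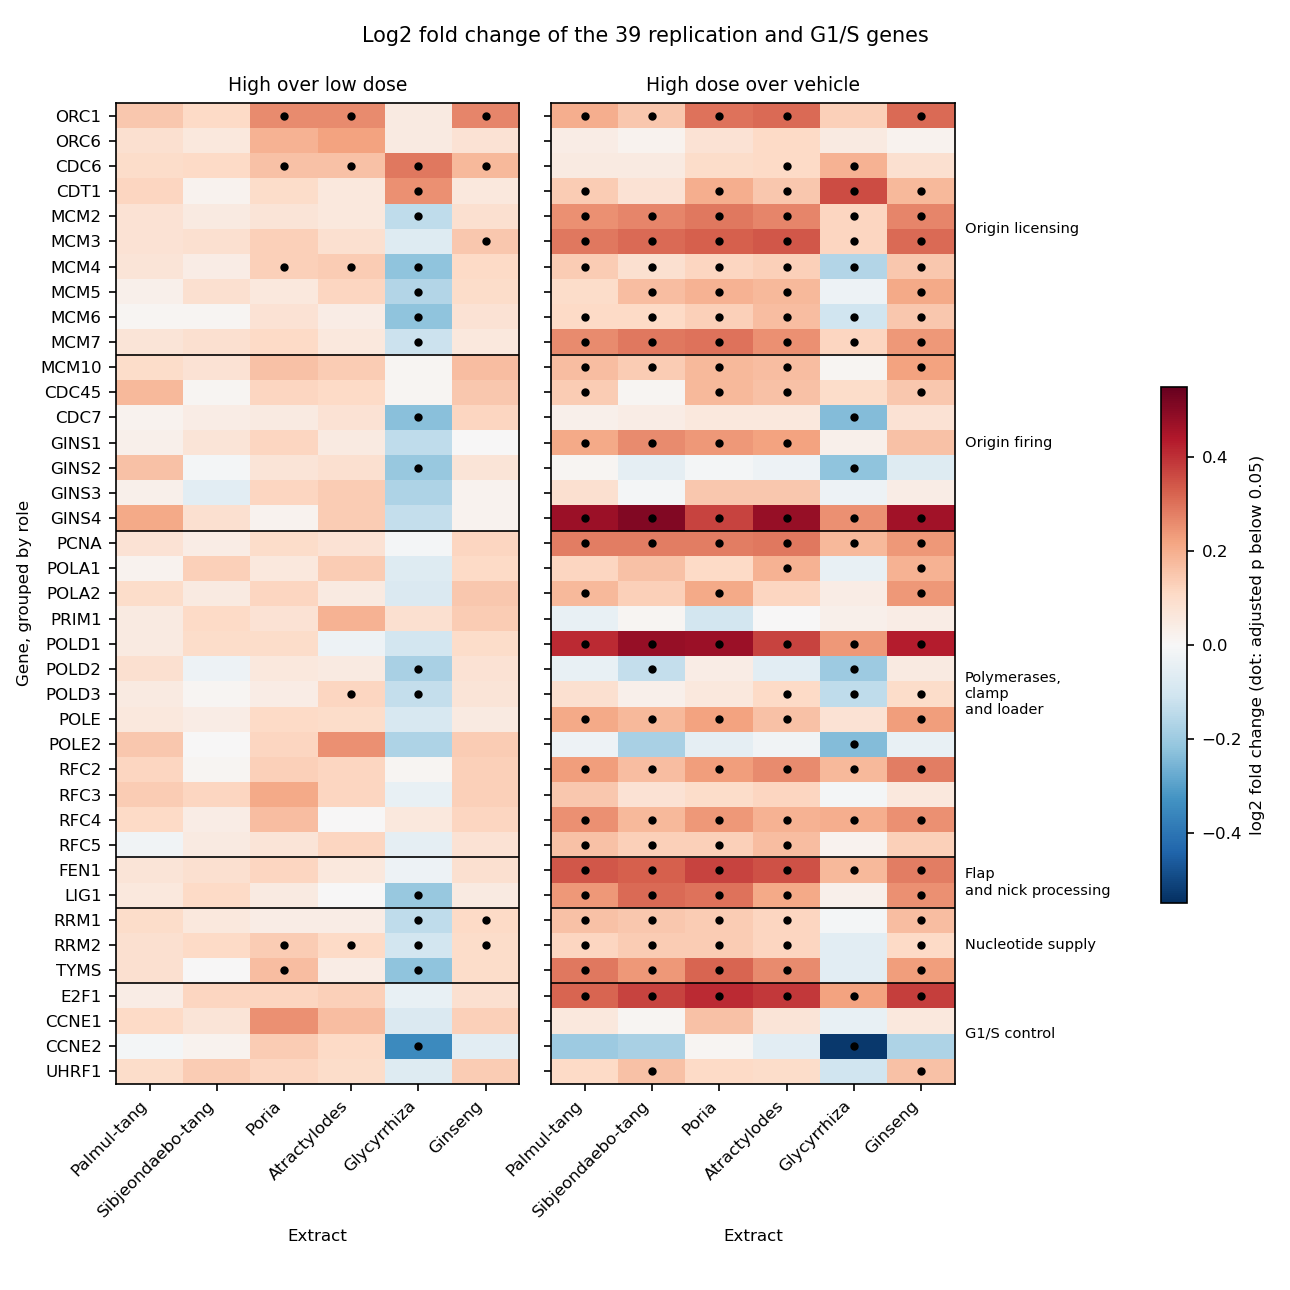
Each cell gives the log2 fold change of 1 gene (rows, grouped by role) with 1 extract (columns), for the high over the low dose on the left and for the high dose over vehicle on the right, from blue (lower) to red (higher), and dots mark adjusted p below 0.05. On the left the Glycyrrhiza column holds 14 falls and 2 rises, whereas the other columns are mostly pale red with at most 5 dots.

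The falls were called between the high and the medium dose of Glycyrrhiza, and not between medium and low. This pair of comparisons was added after the values had been seen. Between high and medium dose 20 of the 39 fell and 1, CDC6, rose, with 23.7% of all genes called (10.3% lower, 13.4% higher) and a median of -0.13. CCNE2 had 11.3, 11.1 and 11.6 CPM at the high dose, against 15.6, 16.6 and 14.4 at the medium dose, and fell by 0.45 ± 0.09 (adjusted p = 2.1e-04). CDC7 fell by 0.35 ± 0.05, MCM6 by 0.27 ± 0.04 and MCM4 by 0.26 ± 0.04. Genes that had not passed between high and low dose but fell here were GINS1 (-0.22), POLA1 (-0.21), POLE (-0.17), POLA2 (-0.17), POLD1 (-0.16) and MCM3 (-0.11). Between medium and low dose 0 of the 39 and 0 of all 16445 genes were called with edgeR, with 7 of the 39 at an unadjusted p below 0.05, 0 called with DESeq2 and a median of 0.04. By group means 29 of the 39 were highest at the medium dose, and the share of all genes with this order was not counted. Over the 3 doses 4 ran upward, CDC6, CDT1, PRIM1 and RFC4, and 4 downward, GINS2, GINS4, RRM1 and TYMS. Of all genes 21.3% ran upward and 22.9% downward, so both counts lie below the background.

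**Figure D2:**
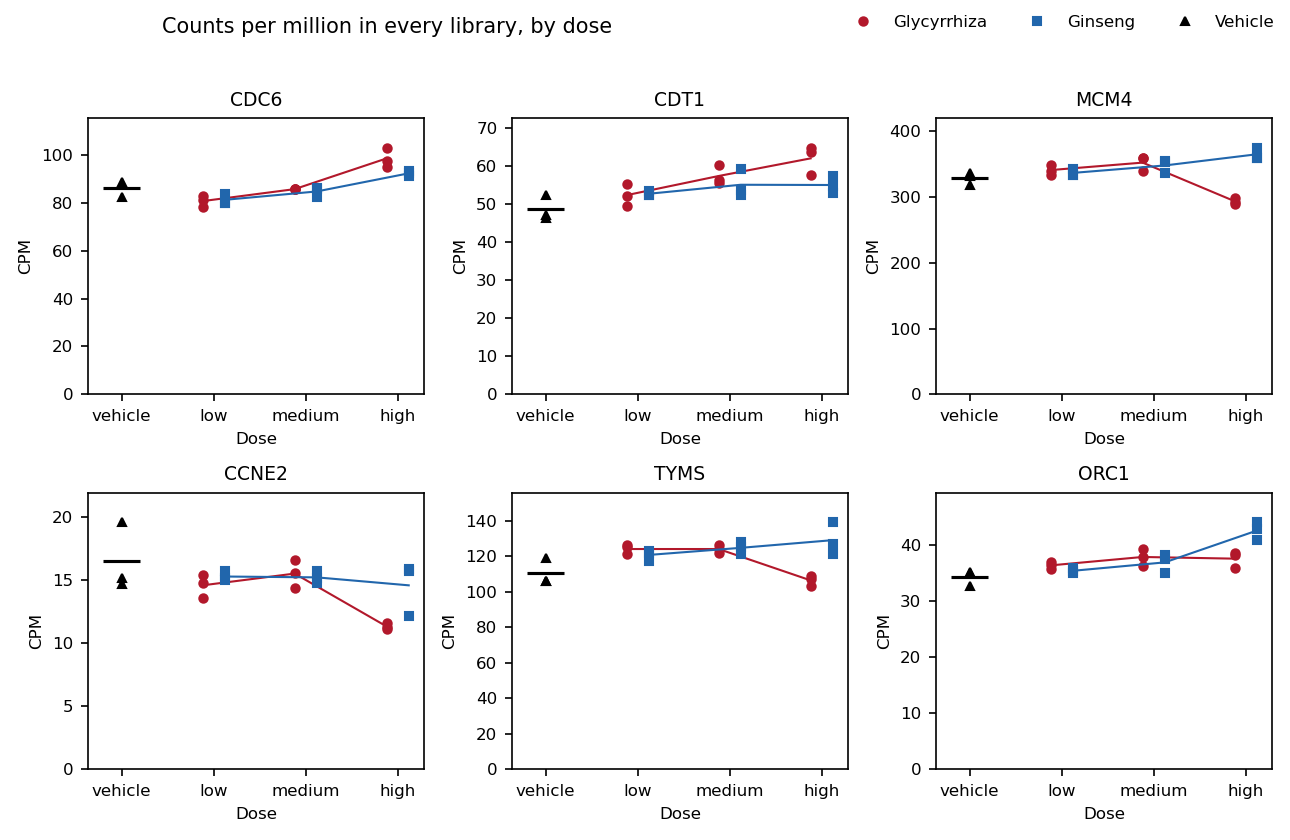
Points are the CPM of single libraries for 6 genes at vehicle and at the low, medium and high doses of Glycyrrhiza (red circles) and Ginseng (blue squares), with lines through the means of the doses and a bar at the vehicle mean. At the high dose the red points of MCM4, CCNE2 and TYMS lie below those of the low dose, and those of CDC6 and CDT1 above.

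Ginseng shares its sample name prefix with Glycyrrhiza, and the difference between the dose effects of the 2 extracts was tested directly. The doses differ, at 350 against 14 µg/mL for Glycyrrhiza and 500 against 20 µg/mL for Ginseng. The high over low change of Glycyrrhiza was below that of Ginseng for 17 of the 39 genes and above it for 0, with a median difference of -0.20, where 12.9% of all genes were called (4.85% lower, 8.08% higher). All 6 helicase subunits were among the 17. MCM4 had 290, 299 and 292 CPM at high Glycyrrhiza and 340, 349 and 334 at low Glycyrrhiza, against 360, 375 and 360 at high Ginseng and 333, 343 and 334 at low Ginseng. Its change was lower by 0.33 ± 0.05 log2 with Glycyrrhiza (adjusted p = 2.9e-06). For CDC7 the difference was -0.35 ± 0.08 (adjusted p = 7.6e-04), for TYMS -0.32 ± 0.07 and for RRM1 -0.25 ± 0.04. For the loaders CDC6 and CDT1 the difference did not pass, at 0.11 ± 0.06 (95% interval -0.01 to 0.22) and 0.19 ± 0.07 (95% interval 0.04 to 0.33, adjusted p = 0.088). That of CCNE2 did not pass either, at -0.29 ± 0.13 (95% interval -0.56 to -0.02, adjusted p = 0.16).

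At the high doses themselves 22 of the 39 were lower with Glycyrrhiza than with Ginseng and 1, CDT1, was higher, against 23.3% of all genes called (9.98% lower, 13.3% higher), and the median was -0.17. CCNE2 had 11.3, 11.1 and 11.6 CPM at high Glycyrrhiza, against 15.9, 12.2 and 15.7 at high Ginseng, a difference of -0.36 ± 0.10 (adjusted p = 0.0035). For UHRF1 it was -0.26 ± 0.05 and for E2F1 -0.16 ± 0.05. CDT1 was higher by 0.18 ± 0.05 (adjusted p = 0.0091).

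**Figure D3:**
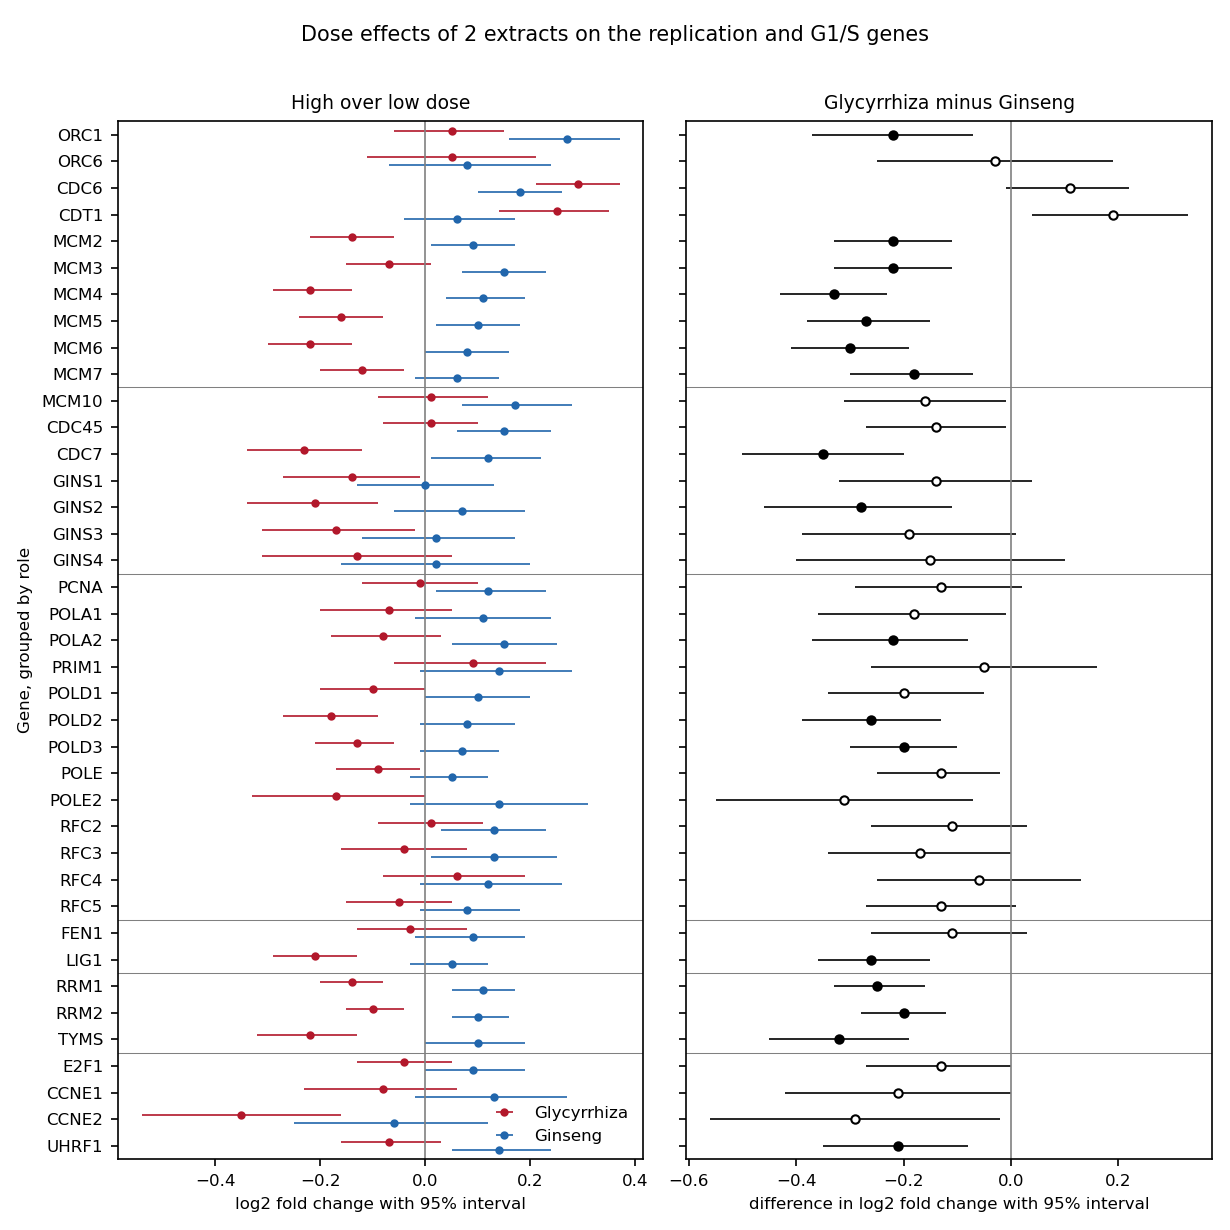
The left panel gives the log2 fold change of high over low dose for each of the 39 genes with its 95% interval, for Glycyrrhiza (red, upper) and Ginseng (blue, lower), and the right panel the difference between them, with filled points where the adjusted p was below 0.05. The 17 filled points all lie left of 0, and CDC6 and CDT1 lie right of it with open points.

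With Poria, Atractylodes and Ginseng all genes that passed between doses rose. Between high and low dose 5 of the 39 rose and 0 fell with each of the 3, a share of 12.8%, where 1.86% of all genes were called with Poria (1.02% higher, 0.839% lower), 3.95% with Atractylodes (1.93% higher, 2.01% lower) and 2.52% with Ginseng (1.29% higher, 1.23% lower). The medians of the 39 were 0.12 with Poria, 0.11 with Atractylodes and 0.10 with Ginseng, while each median over all genes rounded to 0. The origin ATPase genes ORC1 and CDC6 and the reductase gene RRM2 rose with each of these extracts, whose libraries are distinct. MCM4 rose with Poria (0.13 ± 0.04) and Atractylodes (0.14 ± 0.04), TYMS with Poria (0.17 ± 0.05), POLD3 with Atractylodes (0.12 ± 0.04), and RRM1 (0.11 ± 0.03) and MCM3 (0.15 ± 0.04) with Ginseng. Of the genes that passed between doses, CDC6 with Atractylodes was the single one whose libraries overlapped. The largest change, that of ORC1, came to 19.5%, 19.7% and 20.2% on the linear scale.

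ORC1 had 41.5, 43.5 and 41.3 CPM at high Poria, against 33.9, 36.0 and 35.7 at low Poria, and rose by 0.26 ± 0.05 (adjusted p = 0.0026). With Atractylodes it had 42.4, 41.2 and 44.2 CPM at the high dose, against 34.4, 35.7 and 36.7 at the low dose, and rose by 0.26 ± 0.05 (adjusted p = 9.0e-04). With Ginseng it had 44.0, 40.8 and 42.8 CPM at the high dose, against 35.3, 35.9 and 34.9 at the low dose, and rose by 0.27 ± 0.05 (adjusted p = 0.0014). In all 3 extracts the high-dose libraries of ORC1 lay above the low-dose libraries without overlap. CDC6 had 92.1, 92.2 and 92.9 CPM at high Poria, against 85.5, 81.6 and 81.9 at low Poria, and rose by 0.16 ± 0.04. It had 96.9, 94.8 and 88.6 CPM at high Atractylodes, against 80.8, 79.9 and 90.5 at low Atractylodes, where the low-dose library at 90.5 lay within the range of the high dose, and rose by 0.16 ± 0.04. It had 92.6, 93.1 and 91.2 CPM at high Ginseng, against 83.6, 80.1 and 80.0 at low Ginseng, and rose by 0.18 ± 0.04. Between the Glycyrrhiza doses CDC6 rose as well, as given above. RRM2 rose by 0.14 ± 0.03 with Poria, 0.11 ± 0.03 with Atractylodes and 0.10 ± 0.03 with Ginseng. Its libraries had 315, 318 and 328 CPM at high Poria, against 283, 296 and 293 at low Poria, and did not overlap. They had 314, 320 and 312 CPM at high Atractylodes, against 291, 286 and 301 at low Atractylodes, and 324, 306 and 308 CPM at high Ginseng, against 291, 295 and 287 at low Ginseng.

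MCM4 had 352, 365 and 357 CPM at high Poria, against 306, 336 and 336 at low Poria. It had 356, 349 and 371 CPM at high Atractylodes, against 327, 332 and 320 at low Atractylodes. TYMS had 137, 138 and 137 CPM at high Poria, against 119, 122 and 124 at low Poria. High- and low-dose libraries stood apart in each of these pairs. POLD3 had 58.4, 58.6 and 59.7 CPM at high Atractylodes, against 53.5, 54.6 and 54.4 at low Atractylodes. MCM3 had 227, 225 and 215 CPM and RRM1 259, 256 and 246 CPM at high Ginseng, against 198, 203 and 201 and 232, 242 and 231 at low Ginseng. These 3 genes were also higher in every high-dose library. CCNE1, which had changes of 0.25 with Poria, 0.17 with Atractylodes and 0.13 with Ginseng, and POLE2, with 0.12, 0.25 and 0.14 in the same extracts, did not pass.

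These counts rested on single libraries and on the pooled spread. The share of all genes called moved as well. It was 0.876% to 1.52% with Poria, 2.26% to 3.27% with Atractylodes and 1.23% to 2.52% with Ginseng when 1 library was left out, in place of 1.86%, 3.95% and 2.52%, and 0.610%, 2.25% and 0.774% with the 6 libraries of a comparison alone. Leaving out 1 library gave 2 to 4 of the 39 genes with Poria (2 without any 1 of the high-dose libraries, 3 without low-dose replicate 3) and 3 to 4 with Atractylodes (3 without any high-dose library or low-dose replicates 1 or 2). With Ginseng it gave 2 to 8 (2 without replicate 1 of either dose, 3 without high-dose replicate 2 or low-dose replicate 3, 8 without high-dose replicate 3), and with the 6 libraries of a comparison fitted alone 1 gene, ORC1, passed with each extract. Without the 3 libraries that stood apart 4 genes passed with Poria and 2 with Ginseng, where 1.44% and 1.20% of all genes were called, and 6 passed with Atractylodes, where 4.13% were.

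With the decoctions 0 of the 39 passed between high and low dose, where 0.152% of all genes were called with Palmul-tang (0.103% higher, 0.0486% lower) and 0.371% with Sibjeondaebo-tang (0.195% higher, 0.176% lower). In each, 11 of the 39 had an unadjusted p below 0.05 in edgeR, and DESeq2 called 0 with Palmul-tang and 1, RRM2, with Sibjeondaebo-tang. Of all genes DESeq2 called 0.189% and 0.541%. Without high-dose replicate 1 of Palmul-tang 1 gene, CDC45, passed, against 0.0959% of all genes. The smallest adjusted p with Palmul-tang was that of CDC45, with 53.6, 59.8 and 58.6 CPM at the high dose, against 50.9, 49.9 and 51.2 at the low dose (0.18 ± 0.05, adjusted p = 0.099). With Sibjeondaebo-tang it was that of RRM2, with 320, 317 and 319 CPM at the high dose, against 300, 300 and 288 at the low dose (0.11 ± 0.03, adjusted p = 0.058). Over both decoctions and Poria, Atractylodes and Ginseng, whose high- and low-dose libraries are all distinct, the log2 fold change was above 0 in all 5 for 30 of the 39 genes (76.9%), against 11.6% of all tested genes. It was above 0 in 4 for 8 genes and in 3 for CCNE2. Group means ran upward over the 3 doses for 27 of the 39 genes with Palmul-tang, 15 with Sibjeondaebo-tang, 31 with Poria, 24 with Atractylodes and 29 with Ginseng, against 15.5% to 20.4% of all genes in these extracts.

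Extracts that share a sample name prefix were also compared with each other at equal doses. Between Palmul-tang and Sibjeondaebo-tang at 500 µg/mL 0 of the 39 and 0 of all genes differed in edgeR, with 1 of the 39 at an unadjusted p below 0.05 and 0 called by DESeq2, and the 95% intervals of the 39 differences all lay within -0.21 to 0.32. Between Poria and Atractylodes 0 of the 39 differed, against 0.979% of all genes (0.535% higher, 0.444% lower), with 3 at an unadjusted p below 0.05, 0 called by DESeq2, and intervals within -0.28 to 0.24. Their dose effects differed for 0 of the 39 in either pair, with 1 at an unadjusted p below 0.05 in each and 0 called by DESeq2. Among all genes edgeR called 0 differences in dose effect between the decoctions, with 860 at an unadjusted p below 0.05 and 2 called by DESeq2, and 0.158% between Poria and Atractylodes (0.0912% higher, 0.0669% lower).

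Against vehicle, most of the 39 genes were higher at the high dose of each extract with 3 libraries other than Glycyrrhiza. They numbered 24 with Palmul-tang, 23 with Sibjeondaebo-tang, 25 with Poria, 27 with Atractylodes and 26 with Ginseng. Of all genes 11.7%, 14.2%, 13.4%, 11.9% and 10.3% were called higher in these comparisons, 9.95%, 13.1%, 11.6%, 10.6% and 8.57% lower, and 21.7%, 27.4%, 25.0%, 22.5% and 18.9% in either direction. POLD2 with Sibjeondaebo-tang was the single gene of the 39 that was lower in these 5 comparisons (-0.13 ± 0.05, 181, 184 and 187 CPM at the high dose, against 192, 198 and 212 in vehicle). Medians of the 39 lay at 0.15, 0.14, 0.18, 0.16 and 0.17 in the same order, and those of all genes between -0.01 and 0. All of these comparisons use the same 3 vehicle libraries, so they are not independent of each other. With Sibjeondaebo-tang and vehicle fitted alone 14 genes were higher and 0 lower, where 18.0% of all genes were called.

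The largest of these rises were those of GINS4, POLD1, E2F1, FEN1 and MCM3. GINS4 had 8.99, 8.23 and 9.36 CPM at high Palmul-tang, 8.90, 9.30 and 9.08 at high Sibjeondaebo-tang and 8.33, 7.66 and 8.76 at high Poria, against 6.29, 6.72 and 6.14 in vehicle. It had 8.56, 10.0 and 8.19 CPM at high Atractylodes, 7.97, 7.43 and 7.32 at high Glycyrrhiza and 8.77, 9.13 and 8.50 at high Ginseng. Every treated library was above every vehicle library, and the log2 fold changes were 0.47 ± 0.09, 0.51 ± 0.09, 0.37 ± 0.09, 0.48 ± 0.09, 0.25 ± 0.10 and 0.46 ± 0.09 in the order of extracts just given. GINS4 shares 1159 exon bases with a gene without a symbol on the opposite strand. POLD1 had 95.4, 93.7 and 95.2 CPM at high Palmul-tang, 93.1, 103 and 102 at high Sibjeondaebo-tang and 95.7, 103 and 98.3 at high Poria, against 76.9, 69.7 and 67.2 in vehicle. It had 91.2, 97.1 and 87.6 CPM at high Atractylodes, 82.4, 87.2 and 82.8 at high Glycyrrhiza and 97.6, 99.0 and 91.3 at high Ginseng. For this catalytic subunit of polymerase delta the changes in that order were 0.41 ± 0.05, 0.48 ± 0.05, 0.47 ± 0.05, 0.37 ± 0.05, 0.24 ± 0.05 and 0.43 ± 0.05. E2F1 had 67.2, 65.7 and 67.1 CPM at high Palmul-tang, 67.0, 73.0 and 67.0 at high Sibjeondaebo-tang and 68.1, 73.4 and 70.1 at high Poria, against 53.5, 54.4 and 51.8 in vehicle. It had 72.3, 71.5 and 65.8 CPM at high Atractylodes, 64.3, 58.8 and 62.4 at high Glycyrrhiza and 71.8, 68.9 and 66.8 at high Ginseng. The changes of this factor were 0.32 ± 0.05, 0.37 ± 0.05, 0.41 ± 0.05, 0.39 ± 0.05, 0.22 ± 0.05 and 0.38 ± 0.05, and no high-dose library reached down to the vehicle range.

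FEN1 had 164, 148 and 156 CPM at high Palmul-tang, 154, 157 and 154 at high Sibjeondaebo-tang and 157, 159 and 163 at high Poria, against 134, 124 and 111 in vehicle. It had 159, 164 and 147 CPM at high Atractylodes, 148, 136 and 134 at high Glycyrrhiza and 157, 151 and 141 at high Ginseng. The changes of this flap nuclease in the same order of extracts were 0.34 ± 0.05, 0.33 ± 0.05, 0.37 ± 0.05, 0.35 ± 0.05, 0.18 ± 0.05 and 0.28 ± 0.05. MCM3 had 223, 215 and 220 CPM at high Palmul-tang, 213, 221 and 234 at high Sibjeondaebo-tang and 217, 227 and 234 at high Poria, against 186, 175 and 176 in vehicle. It had 222, 234 and 225 CPM at high Atractylodes, 199, 193 and 191 at high Glycyrrhiza and 227, 225 and 215 at high Ginseng. Those of this helicase subunit were 0.29 ± 0.04, 0.31 ± 0.04, 0.33 ± 0.04, 0.34 ± 0.04, 0.12 ± 0.04 and 0.31 ± 0.04. All high-dose libraries of FEN1 and MCM3 exceeded all vehicle libraries, although the nearest FEN1 libraries, of high Glycyrrhiza and vehicle, both rounded to 134 CPM. With Ginseng ORC1 ranked among the 5 largest rises, with 44.0, 40.8 and 42.8 CPM at the high dose, against 35.0, 32.6 and 35.1 in vehicle (0.31 ± 0.05). Genes that were higher with none of the 6 extracts were CDC7, GINS2, GINS3, ORC6, POLD2, POLE2, PRIM1, RFC3, CCNE1 and CCNE2.

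PCNA had 225, 220 and 225 CPM at high Palmul-tang, 228, 233 and 207 at high Sibjeondaebo-tang and 222, 223 and 222 at high Poria, against 201, 182 and 167 in vehicle. It had 231, 219 and 221 CPM at high Atractylodes, 213, 207 and 205 at high Glycyrrhiza and 233, 211 and 205 at high Ginseng. For this clamp the changes were 0.28, 0.28, 0.28, 0.29, 0.18 and 0.24, and all passed. MCM2 had 230, 230 and 234 CPM at high Palmul-tang, 230, 228 and 244 at high Sibjeondaebo-tang and 245, 232 and 236 at high Poria, against 201, 200 and 183 in vehicle. It had 244, 233 and 227 CPM at high Atractylodes, 215, 210 and 209 at high Glycyrrhiza and 237, 240 and 226 at high Ginseng. All 6 changes of this helicase subunit passed as well, at 0.25, 0.27, 0.29, 0.27, 0.12 and 0.27, and in neither gene did a treated library overlap vehicle. TYMS had 143, 129 and 132 CPM at high Palmul-tang, 129, 138 and 125 at high Sibjeondaebo-tang and 137, 138 and 137 at high Poria, against 119, 106 and 106 in vehicle. It had 134, 135 and 126 CPM at high Atractylodes, 109, 107 and 103 at high Glycyrrhiza and 139, 127 and 121 at high Ginseng. For TYMS the changes were 0.29, 0.24, 0.32, 0.26, -0.06 and 0.23, of which that with Glycyrrhiza did not pass.

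MCM5 had 111, 113 and 116 CPM at high Palmul-tang, 121, 121 and 117 at high Sibjeondaebo-tang and 124, 120 and 120 at high Poria, against 105, 107 and 107 in vehicle. It had 123, 120 and 118 CPM at high Atractylodes, 98.2, 104 and 110 at high Glycyrrhiza and 124, 129 and 116 at high Ginseng. The changes of MCM5 were 0.10, 0.17, 0.19, 0.18, -0.03 and 0.21, of which those with Palmul-tang and Glycyrrhiza did not pass. MCM10 had 43.9, 40.6 and 41.3 CPM at high Palmul-tang, 40.8, 38.6 and 42.9 at high Sibjeondaebo-tang and 41.5, 41.9 and 42.3 at high Poria, against 37.3, 35.8 and 38.2 in vehicle. It had 42.6, 42.1 and 40.2 CPM at high Atractylodes, 38.4, 36.1 and 37.6 at high Glycyrrhiza and 43.6, 45.2 and 41.3 at high Ginseng. The changes of MCM10 were 0.17, 0.14, 0.18, 0.17, 0.01 and 0.22, and that with Glycyrrhiza did not pass. CCNE2 had 13.0, 15.8 and 14.2 CPM at high Palmul-tang, 13.9, 16.1 and 13.8 at high Sibjeondaebo-tang and 16.9, 16.9 and 15.8 at high Poria, against 15.2, 19.6 and 14.7 in vehicle. It had 16.8, 15.3 and 15.3 CPM at high Atractylodes, 11.3, 11.1 and 11.6 at high Glycyrrhiza and 15.9, 12.2 and 15.7 at high Ginseng. For CCNE2 the changes were -0.20, -0.18, 0.01, -0.06, -0.53 and -0.17, of which that with Glycyrrhiza alone passed, and the libraries of the other 5 extracts overlapped vehicle. CDT1 was higher with Poria (0.20 ± 0.05), Ginseng (0.18 ± 0.05), Atractylodes (0.15 ± 0.05) and Palmul-tang (0.14 ± 0.05), and CDC45 with the same 4, by 0.18, 0.15, 0.16 and 0.14. POLA1 was higher with Atractylodes and Ginseng, at 0.19 in both, and UHRF1 at 0.16 with Ginseng and with Sibjeondaebo-tang.

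**Figure D4:**
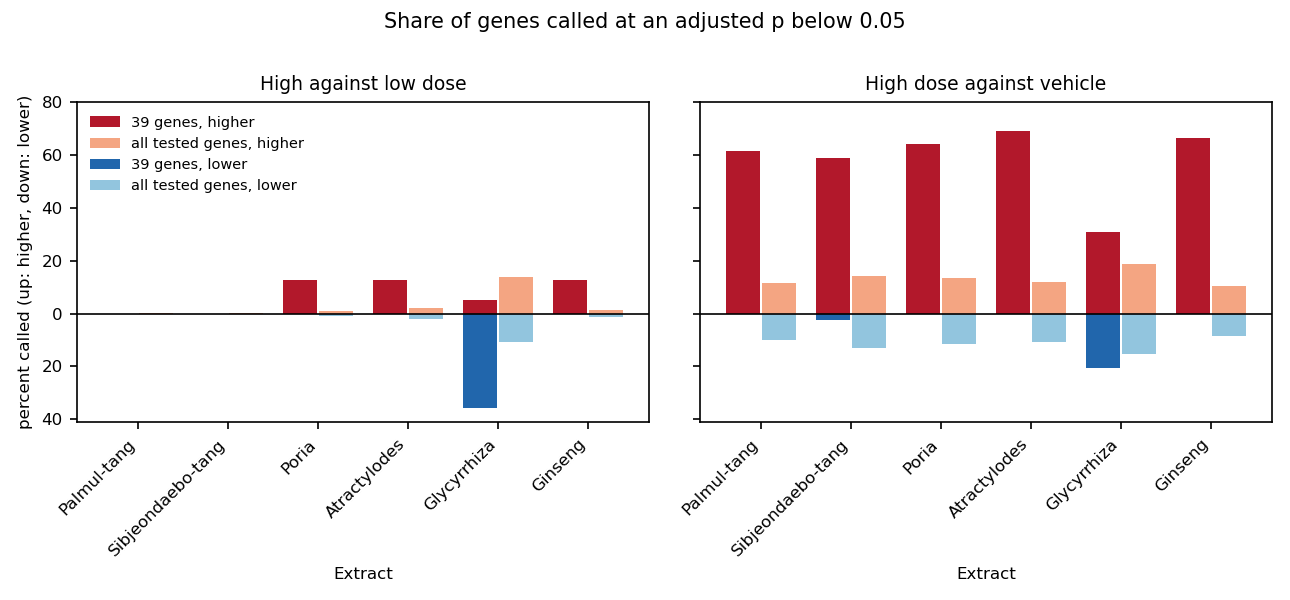
Dark bars give the percentage of the 39 genes called higher (upward, red) or lower (downward, blue) and light bars the same for all 16445 tested genes, for the high against the low dose on the left and the high dose against vehicle on the right. Dark red bars reach 59% to 69.2% against vehicle with 5 extracts and 30.8% with Glycyrrhiza, and the dark blue bar is deepest for Glycyrrhiza between high and low dose, at 35.9%.

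Glycyrrhiza at its high dose gave 12 genes above and 8 below vehicle, where 18.8% of all genes were higher and 15.5% lower (34.3% in all), with a median of 0.03. Its largest fall was again that of CCNE2, with 11.3, 11.1 and 11.6 CPM at the high dose, against 15.2, 19.6 and 14.7 in vehicle (-0.53 ± 0.10, adjusted p = 1.3e-05). CDC7 fell by 0.24 ± 0.06, POLE2 by 0.24 ± 0.08, GINS2 by 0.22 ± 0.06, POLD2 by 0.20 ± 0.05, MCM4 by 0.16 ± 0.04, POLD3 by 0.14 ± 0.04 and MCM6 by 0.11 ± 0.04. Vehicle libraries had 29.5, 29.1 and 30.8 CPM of CDC7, 39.9, 37.3 and 42.2 of GINS2 and 332, 318 and 337 of MCM4, all above the high-dose libraries given earlier. POLE2 had 11.4, 10.3 and 12.1 CPM at the high dose, against 13.5, 11.9 and 14.8 in vehicle, and overlapped, as did POLD3 and MCM6. The largest rise was that of CDT1, with 63.6, 57.6 and 64.8 CPM at the high dose, against 46.4, 47.0 and 52.3 in vehicle (0.36 ± 0.05, adjusted p = 3.4e-07). CDC6 was higher by 0.19 ± 0.04 and the clamp loader gene RFC4 by 0.20 ± 0.07, with 29.1, 26.0 and 25.9 CPM of RFC4 at the high dose, against 22.3, 22.5 and 25.9 in vehicle. The balance of direction depended on the fit, with 5 higher and 7 lower without vehicle replicate 3 and 6 higher and 8 lower without high-dose replicate 1. It was 6 higher and 5 lower with both groups fitted alone, 8 higher and 5 lower without the filter on low counts, and 5 higher and 9 lower with the mitochondrial share as a covariate. Of all genes 26.6%, 29.1%, 33.5%, 15.0% and 27.7% were called in these fits, in the order given, in place of 34.3%.

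Differences from vehicle were already present at the low doses. For the mean of the 6 low doses 16 of the 39 were higher and 1, POLE2, lower, against 14.8% and 13.9% of all genes (28.6% in all), and the median was 0.08. For the mean of the 6 medium doses 23 were higher and 0 lower, against 14.2% and 13.1% (27.4% in all), and the median was 0.12. In single libraries the median of the 39 genes lay between -0.030 and 0.026 log2 units of the vehicle mean in vehicle, and at 0.005, 0.052 and 0.031 in the high Glycyrrhiza libraries. It reached 0.171, 0.103 and 0.171 at the medium Glycyrrhiza dose and 0.188, 0.197 and 0.131 at high Ginseng. Of the 13 genes of the mitochondrial genome, those below vehicle at the high doses numbered 11 with Palmul-tang, 10 with Sibjeondaebo-tang, 11 with Poria, 9 with Atractylodes, 10 with Glycyrrhiza and 6 with Ginseng. With the mitochondrial share of each library as a covariate 14, 13, 18, 16, 14 and 17 of the 39 differed from vehicle in that order of extracts, in place of 24, 24, 25, 27, 20 and 26. Under this covariate 7.58%, 12.3%, 14.0%, 11.0%, 27.7% and 12.0% of all genes were called, in place of 21.7%, 27.4%, 25.0%, 22.5%, 34.3% and 18.9%, so the number called fell among all genes as well. The part of this share in the differences from vehicle was not tested further.

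**Figure D5:**
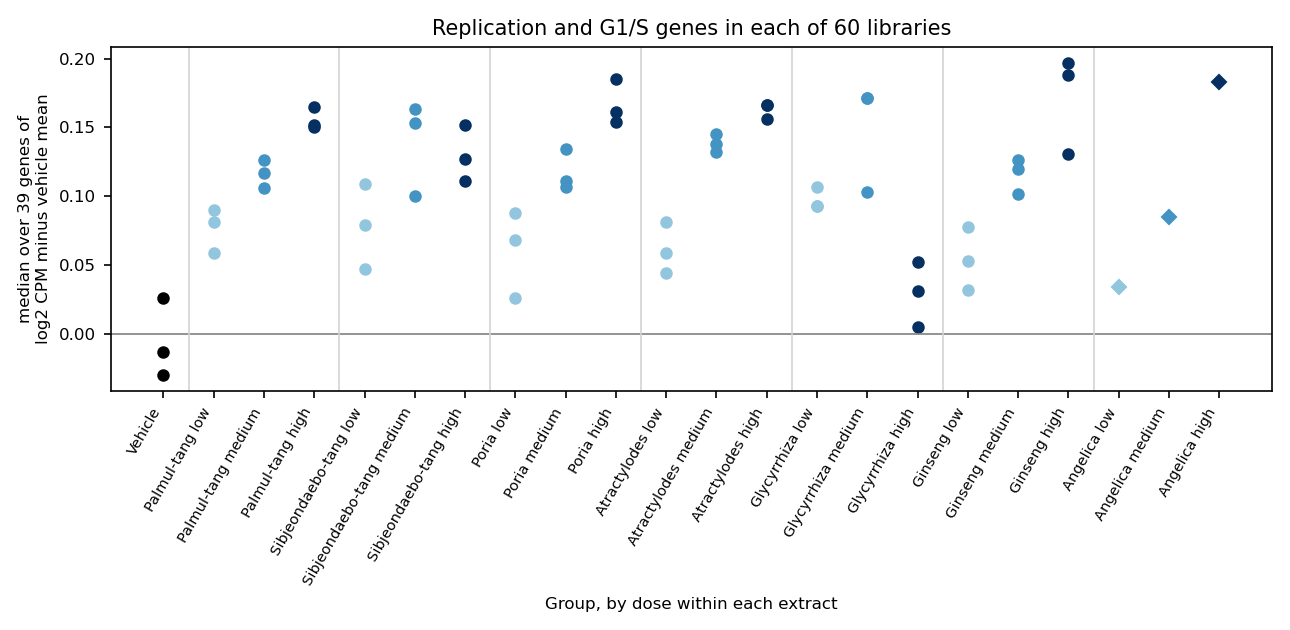
Each point is 1 of 60 libraries and gives the median over the 39 genes of log2 CPM minus the vehicle mean, with the doses of each extract from low to high beside vehicle, and diamonds mark the single Angelica libraries. The points step up with dose in most extracts, with high-dose values of 0.111 to 0.197 in those with 3 libraries other than Glycyrrhiza, whose high-dose libraries lie at 0.005 to 0.052.

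Other genes of replication and the cell cycle were taken from lists made by function, also with earlier results of these data known. Their counts between the Glycyrrhiza doses stand against 14.0% of all genes higher and 10.9% lower, and a fall of 3 of 22 or 5 of 30 genes is near that background. Between high and low Glycyrrhiza dose 1 of 30 further origin, fork and checkpoint genes rose and 5 fell. POLD4, the small subunit of polymerase delta, had 48.9, 47.2 and 50.4 CPM at the high dose, against 35.1, 34.9 and 31.3 at the low dose, and rose by 0.53 ± 0.06. GMNN, geminin, which inhibits CDT1, fell by 0.19 ± 0.06, and the nuclease gene EXO1 by 0.16 ± 0.06. Of 19 further G1/S genes 3 rose and 5 fell. CDKN1A, which encodes the cyclin-dependent kinase inhibitor p21, had 29.1, 29.4 and 28.6 CPM at high Glycyrrhiza, against 15.5, 14.3 and 16.5 at low Glycyrrhiza, and rose by 0.91 ± 0.08 (adjusted p = 4.8e-13). With Ginseng CDKN1A had 13.3, 14.1 and 11.1 CPM at the high dose, against 17.3, 15.7 and 16.0 at the low dose, and fell by 0.34 ± 0.09, and the dose effects differed by 1.25 ± 0.12 (adjusted p = 2.6e-11). CDK6, a kinase of early G1, rose by 0.46 ± 0.07 and SKP2, which marks the inhibitor p27 for degradation, fell by 0.24 ± 0.05. Of 22 genes of nucleotide supply and chromatin assembly 0 rose and 3 fell, among them CTPS1, CTP synthase, by 0.18 ± 0.04 and MSH6 by 0.16 ± 0.05. CTPS1 had 99.0, 97.0 and 97.5 CPM at the high dose, against 113, 109 and 110 at the low dose, with no overlap.

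Between high and low dose of Atractylodes 2 of the 30 origin and fork genes, 3 of the 19 G1/S genes and 2 of the 22 genes of nucleotide supply and chromatin assembly rose, and 0 fell, against 1.93% of all genes higher and 2.01% lower. In the same lists 0, 0 and 1 rose with Poria and 1, 1 and 1 with Ginseng, where 1 G1/S gene fell, and 0 passed with either decoction. Of all genes 1.02% rose with Poria and 1.29% with Ginseng. CTPS1 rose with Poria (0.15 ± 0.04), Atractylodes (0.13 ± 0.04) and Ginseng (0.13 ± 0.04). With Atractylodes the chromatin assembly gene CHAF1A (0.18 ± 0.04), CDK6 (0.25 ± 0.07), RBL1 (0.22 ± 0.06), E2F8 (0.21 ± 0.06), EXO1 (0.18 ± 0.05) and TOPBP1 (0.13 ± 0.04) also rose. With Ginseng CDC25A, a phosphatase that activates the kinases of G1/S, rose by 0.28 ± 0.05 and TIPIN by 0.21 ± 0.06. Against vehicle, where 10.3% to 14.2% of all genes were higher and 8.57% to 13.1% lower with the 5 extracts other than Glycyrrhiza, 8 to 10 of the 30 further origin and fork genes were higher and 1 to 2 lower with these 5, and 6 higher and 7 lower with Glycyrrhiza (18.8% and 15.5% of all genes). CHTF18, a subunit of an alternative clamp loader, had the largest change of the list in each of the 6, from 0.53 with Atractylodes to 0.71 with Ginseng. It had 62.2, 61.8 and 53.4 CPM at high Ginseng, against 37.6, 36.7 and 34.4 in vehicle. The further G1/S genes were split, with 1 to 4 higher and 1 to 4 lower of 19 in those 5 extracts. Of the 22 genes of nucleotide supply and chromatin assembly 9 to 12 were higher and 0 to 1 lower, among them the dUTPase gene DUT, at 0.42 ± 0.08 with Palmul-tang and 0.40 ± 0.08 with Poria.

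Angelica had 1 library per dose, so its values carry no test and no replicate check. Of the 39 genes 0 passed a log2 ratio of 0.5 in either direction between high and low dose or between the high dose and the vehicle mean. Among all genes 3.96% were past this ratio upward and 9.46% downward between high and low dose, and 4.52% and 8.39% against vehicle. The median log2 ratio of high over low dose was 0.10, against -0.01 over all genes, and 35 of the 39 were above 0. RFC3, a clamp loader subunit, was highest at 0.43 and GINS4 lowest at -0.09. Against the vehicle mean the median was 0.18, with POLD1 highest at 0.42 and CCNE2 lowest at -0.29. For ORC1 the ratio was 0.23 between high and low dose and 0.29 against vehicle.

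The genes whose levels ran most like those of CCNE2, E2F1 and RRM2 were sought among all tested genes, by Pearson's r of the mean log2 CPM over the 19 groups of 3 libraries. The means share the same vehicle and depth scaling, and the r values are descriptions with no p. For CCNE2 the closest were SZRD1 (r = 0.92), SUMO3 (0.89), LANCL2 (0.88), CXCR3 (0.88) and ATF5 (0.87). For E2F1 they were ENO1 and SMG5 (both 0.94), DDX11, THOP1 and BOP1 (all 0.93). For RRM2 they were PPIF (0.94), MRTO4 (0.93), XPO5, HSP90AA1 and FKBP4 (all 0.90). No gene among these was one of the 39.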

How the data were processed

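The authors deposited 1 table of expected counts per gene, estimated with RSEM 1.3.3 after FastQC 0.11.9, Trim Galore 0.6.5 and STAR 2.7.3a on hg38 (GRCh38), per the submitters' processing notes. The libraries keep strand, per the labels' protocols. Between 7.70% and 9.78% of values per library were not whole and were rounded. Another 213 sample columns were not used here. Symbols came from a gene name table (56558 identifiers matched), coordinates and exon lengths from GENCODE 29 (GRCh38), and promoter windows from RefSeq.

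The 19 groups of 3 libraries were fitted together with edgeR 4.0.16 (R 4.3.3, TMM factors of 0.956 to 1.031, filterByExpr, 16445 genes, quasi-likelihood F test, 38 residual degrees of freedom), and p-values were adjusted by Benjamini-Hochberg over all tested genes within a comparison. CPM are the deposited counts divided by the library total over tested genes times its TMM factor, in M. Angelica libraries were put on the same scale, with a prior count of 2, a log2 threshold of 0.5 and no test. Replicates correlated at r of 0.9938 to 0.9981 and differed beyond sampling noise. Depth per library is given with the results, and precision as the standard error or 95% interval of the fit. The 39 members and the gene lists were chosen with earlier results of these data known. Named in every library were up to 5 called rises and 5 called falls per comparison of a high dose, and 17 genes that were always followed. These 17 stand in every library for Glycyrrhiza, and otherwise partly as fold changes or counts, to avoid repetition. Named too were up to 3 called genes of each further list. As alternatives, RLE factors, no low-count filter, the compared groups alone, the replicate number as a block, the mitochondrial share as a covariate, each library left out and DESeq2 1.42.0 were tried. Leaving out 3 libraries that lay apart on the third principal component, and the Glycyrrhiza comparisons with the medium dose, were added after the values had been seen. The fit was tested on simulated data. Some genes of the further lists are not reported here. Tables and figures were made with Python 3.11.15, pandas 2.3.3 and matplotlib 3.10.9.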

Additional observations from a re-analysis of the deposited data

Results flagged for a closer look

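For 17 of the 39 genes the change between high and low dose differed between Glycyrrhiza and Ginseng in a test of the difference itself (edgeR, adjusted p below 0.05), where 12.9% of all genes differed. Each difference is the log2 change with Glycyrrhiza minus that with Ginseng, and all 17 were negative. In the helicase it was -0.22 for MCM2, -0.22 for MCM3, -0.33 for MCM4, -0.27 for MCM5, -0.30 for MCM6 and -0.18 for MCM7. Among the other origin factors it was -0.35 for CDC7, -0.28 for GINS2 and -0.22 for ORC1. Among polymerase subunits it was -0.22 for POLA2, -0.26 for POLD2 and -0.20 for POLD3, and for the ligase LIG1 it was -0.26. In nucleotide supply it was -0.25 for RRM1, -0.20 for RRM2 and -0.32 for TYMS, and for UHRF1 it was -0.21. ORC1, UHRF1, POLA2 and MCM3 did not pass between the Glycyrrhiza doses alone.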

How the results depend on the processing

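Counts are of the 39 genes. RLE factors moved no count by over 1.5 times. The share of all genes called in the same fit moved as well, and stands beside each count. Without the filter on low counts 2 genes were called between high and low dose with Atractylodes and 2 with Ginseng, in place of 5 each, and 13 in place of 20 with Glycyrrhiza against vehicle. Of the 34296 genes then tested 1.87%, 1.34% and 15.0% were called, in place of 3.95%, 2.52% and 34.3% of 16445. With the compared groups fitted alone 1 was called between doses with Poria, 1 with Atractylodes and 1 with Ginseng, and against vehicle 14 with Sibjeondaebo-tang and 11 with Glycyrrhiza. Of all genes 0.610%, 2.25%, 0.774%, 18.0% and 33.5% were called in these, in that order. With the mitochondrial share as a covariate 1 was called between doses with Sibjeondaebo-tang and 3 with Poria, and against vehicle 14 with Palmul-tang, 13 with Sibjeondaebo-tang, 16 with Atractylodes, 17 with Ginseng and 15 for the mean of the medium doses. Of all genes 0.499% and 1.66% were called between these doses, and 7.58%, 12.3%, 11.0%, 12.0% and 14.3% against vehicle. Without the 3 libraries apart 1 was called between doses with Sibjeondaebo-tang and 2 with Ginseng, against 0.481% and 1.20% of all genes. DESeq2 called 1 with Sibjeondaebo-tang between doses, against 0.541% of all genes. Correlations of deviations between libraries of the same replicate number ran from -0.11 to 0.19 over 17 comparisons. In 0 of these comparisons did every pair pass 0.1, and the main fit left the replicate number out. Whether libraries of the same number shared an effect was not tested further. The fit with the replicate block called 1 between doses with Sibjeondaebo-tang, 9 with Poria and 9 with Ginseng. Of all genes this fit called 0.724%, 2.83% and 3.79%, in place of 0.371%, 1.86% and 2.52%. Leaving out 1 library gave 0 to 1 between doses with Palmul-tang, 2 to 4 with Poria, 3 to 4 with Atractylodes, 2 to 8 with Ginseng and 14 to 16 with Glycyrrhiza, and 12 to 20 with Glycyrrhiza against vehicle. In that order 0.0719% to 0.0959%, 0.876% to 1.52%, 2.26% to 3.27%, 1.23% to 2.52%, 19.6% to 21.5% and 26.6% to 31.6% of all genes were called. Over these fits the counts with Glycyrrhiza between high and low dose stayed at 14 to 16, and no called fold change of the 39 genes changed sign. The cause of each shift was not tested. Prior counts of 0.5 and 5 gave 0 genes past the threshold with Angelica. Between Glycyrrhiza doses the standard error was 0.09 for CCNE2, a gene of low counts, against 0.04 for MCM4. The part of depth in this was not tested.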

Other observations

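Genes of mitosis and G2/M were followed as a further list of 26. Between high and low dose 4 fell and 0 rose with Glycyrrhiza, among them BIRC5 (-0.19 ± 0.07), AURKA (-0.18 ± 0.04) and KIF20A (-0.17 ± 0.04), against 10.9% of all genes lower and 14.0% higher, so that 4 of 26 is near the background. Between high and medium dose 12 fell and 0 rose, against 10.3% and 13.4%. MKI67, the gene of the Ki-67 antigen of cycling cells, had 874, 841 and 812 CPM at the high Glycyrrhiza dose, against 970, 1036 and 954 at the medium dose, and fell by 0.23 ± 0.06. Against vehicle 9 of the 26 were higher and 1 lower with Palmul-tang, 8 and 3 with Sibjeondaebo-tang, and 8 and 5 with Poria. With Atractylodes 4 were higher and 3 lower, with Glycyrrhiza 3 and 4, and with Ginseng 8 and 0. Of all genes 11.7%, 14.2%, 13.4%, 11.9%, 18.8% and 10.3% were higher in that order of extracts. Those lower were 9.95%, 13.1%, 11.6%, 10.6%, 15.5% and 8.57%. Single genes went both ways. CDK1, the kinase of mitotic entry, was higher by 0.38 ± 0.06 with Palmul-tang, 0.31 ± 0.06 with Poria and 0.27 ± 0.06 with Ginseng, while MKI67 fell by 0.24 ± 0.06 with Sibjeondaebo-tang, 0.25 ± 0.06 with Poria and 0.28 ± 0.06 with Glycyrrhiza.

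Markers of colorectal epithelium also moved with the high Glycyrrhiza dose. CEACAM5 had 14.3, 14.6 and 17.8 CPM at the high dose, against 6.85, 6.46 and 5.97 at the low dose, and rose by 1.27 ± 0.11. KRT20, a keratin of differentiated gut epithelium, had 508, 497 and 512 CPM at the high dose, against 310, 284 and 287 at the low dose, and rose by 0.78 ± 0.06. VIL1, which encodes villin of the brush border, had 117, 124 and 121 CPM at the high dose, against 178, 190 and 193 at the low dose, and fell by 0.63 ± 0.04. Of the 11 markers 3 rose and 1 fell, against 14.0% of all genes higher and 10.9% lower. The 1 fall of 11 is near that background. Between high and low dose 1 marker also rose and 1 fell with Ginseng, against 1.29% and 1.23% of all genes. With Atractylodes 1 rose and 1 fell too, against 1.93% and 2.01%. The part of these markers in the changes of the replication genes was not tested.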
